A study of Homo sapiens with 9 samples.

Results

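The chromatin around 8 genes of the ETS family of transcription factors other than ERG was examined in VCaP, an established human prostate cancer line: ETV1, ETV4, ETV5, ETS2, FLI1, SPDEF, EHF and ELF3. Regions were taken by position alone, while the genes were chosen with earlier results of these data known. ATAC-seq peaks of the 9 libraries were merged where they overlapped, and every merged region touching a fixed hg19 window around each gene was taken, which gave 72 of the 94773 merged regions of the series. The windows were 200 kb for ETV1, 80 kb for ETV4, 170 kb for ETV5, 110 kb for ETS2, 220 kb for FLI1, 110 kb for SPDEF, 140 kb for EHF and 100 kb for ELF3. ATAC-seq uses the transposase Tn5 to cut open DNA, so a peak marks accessible chromatin.

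The libraries formed 3 groups of 3, all from prostate cells that the labels give as WT. VCaP_DMSO was VCaP in the solvent DMSO, VCaP_ENZ was VCaP after 96 h in 10 µM enzalutamide (ENZ), an androgen receptor antagonist, and VCaP16 was the line labelled ENZ-resistant VCaP, in 16 µM ENZ. The drug doses of the last 2 groups differ, and VCaP16 without drug is not among the libraries, so the effect of the line and that of the drug cannot be told apart. Whether replicates came from independent cultures is not stated, and the p-values therefore describe variation among these libraries, part or all of which may be technical. Cells had been fixed with formaldehyde, and the preparation text covers a bulk and a droplet method; the lists were handled as bulk. The lists carry no read counts, so depth is unknown; they ran from 53646 to 68921 peaks, with VCaP16 replicate 3 the longest. The cell type was not checked against its markers, because no hg19 annotation was used here, and for the same reason a region in a window is not assigned to the gene that names it.

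ETS factors share a DNA-binding domain that recognises a GGAA core. In prostate cancer, fusions place ERG, and less often ETV1, ETV4, ETV5 or FLI1, under androgen-driven promoters such as that of TMPRSS2, and VCaP carries the TMPRSS2-ERG fusion. ETV1, ETV4 and ETV5 form the PEA3 subfamily, which acts downstream of receptor tyrosine kinase signalling; SPDEF, EHF and ELF3 are epithelial factors, SPDEF being named for its prostate origin.

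The RefSeq promoter table (GRCh38.p14, 250 bases before to 50 after each start) held 12 entries for 5 of the 8 genes: ETV1, ETS2, SPDEF, EHF and ELF3. The entries of SPDEF, whose window held the 1 region past the threshold in the comparisons of groups, and of ETV1, the member with a match to the hormone half-site AGAACA, are shown 5′ to 3′ on the gene's strand, with the ETS core GGAA or its reverse complement TTCC in capitals. The table is on another build than the peaks, so neither sequence was placed among the regions.
SPDEF promoter: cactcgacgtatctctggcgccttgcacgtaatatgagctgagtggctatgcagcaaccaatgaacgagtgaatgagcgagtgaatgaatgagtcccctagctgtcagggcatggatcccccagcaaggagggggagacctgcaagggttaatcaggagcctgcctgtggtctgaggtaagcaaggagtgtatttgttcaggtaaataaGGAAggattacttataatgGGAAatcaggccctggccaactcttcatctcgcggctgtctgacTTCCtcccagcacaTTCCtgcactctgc
ETV1 promoter, entry 1: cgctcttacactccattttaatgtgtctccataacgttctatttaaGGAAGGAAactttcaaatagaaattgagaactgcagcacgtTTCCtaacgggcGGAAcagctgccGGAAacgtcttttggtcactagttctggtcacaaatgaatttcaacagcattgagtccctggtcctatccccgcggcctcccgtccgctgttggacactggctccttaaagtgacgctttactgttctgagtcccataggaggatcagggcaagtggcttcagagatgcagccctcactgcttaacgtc
The SPDEF entry held 4 matches to the core and this ETV1 entry 5. Searched on both strands, the 4-letter core occurred in 11 of the 12 entries, against 95.5% of 35116 promoters of the same length, and EHF entry 2 had no match. The longer ETS sequence CCGGAAGT occurred in 0 of 12 entries (4.14% of all promoters). AGAACA occurred in 2 of 12 (14.8% of all promoters), both of ETV1. ETV1 entries 1 and 4 overlap almost fully and hold the same match, so the 2 entries are not independent. All matches named here are matches of letters and not binding sites.

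Of the 72 regions, 49 were consensus regions, with a call in 2 or more of the 3 libraries in at least 1 group (66108 over the series), and 35 were called in all 9 libraries (33033 over the series). The share of consensus regions called in all 9 was 71.4% in the ETS windows and 50.0% over the series. Regions from 1 library only numbered 22 of the 72 (30.6%, against 22.6% over the series). Those 22 were weak, with scores of 2.06 to 8.52, and came from VCaP_DMSO (9 regions), VCaP_ENZ (5) and VCaP16 (8). The 14 consensus regions missing from some library scored 2.73 to 18.6, and the 35 found everywhere 4.85 to 195. The last region, EHF region 1, was called in 1 library of each group at 4.14 to 6.78 and was not a consensus region. Median consensus width was 711 bp in the windows and 639 bp over the series. Each library placed 44 to 51 peaks in the windows, 0.0740% to 0.0858% of its list, with the lowest share in VCaP16 replicate 3. The ELF3 and SPDEF windows were densest, with 9 and 8.18 consensus regions per 100 kb, followed by ETV4 with 6.25. FLI1 had 3.64, EHF 3.57, ETV1 3, ETS2 2.73 and ETV5 2.35.

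**Figure D1:**
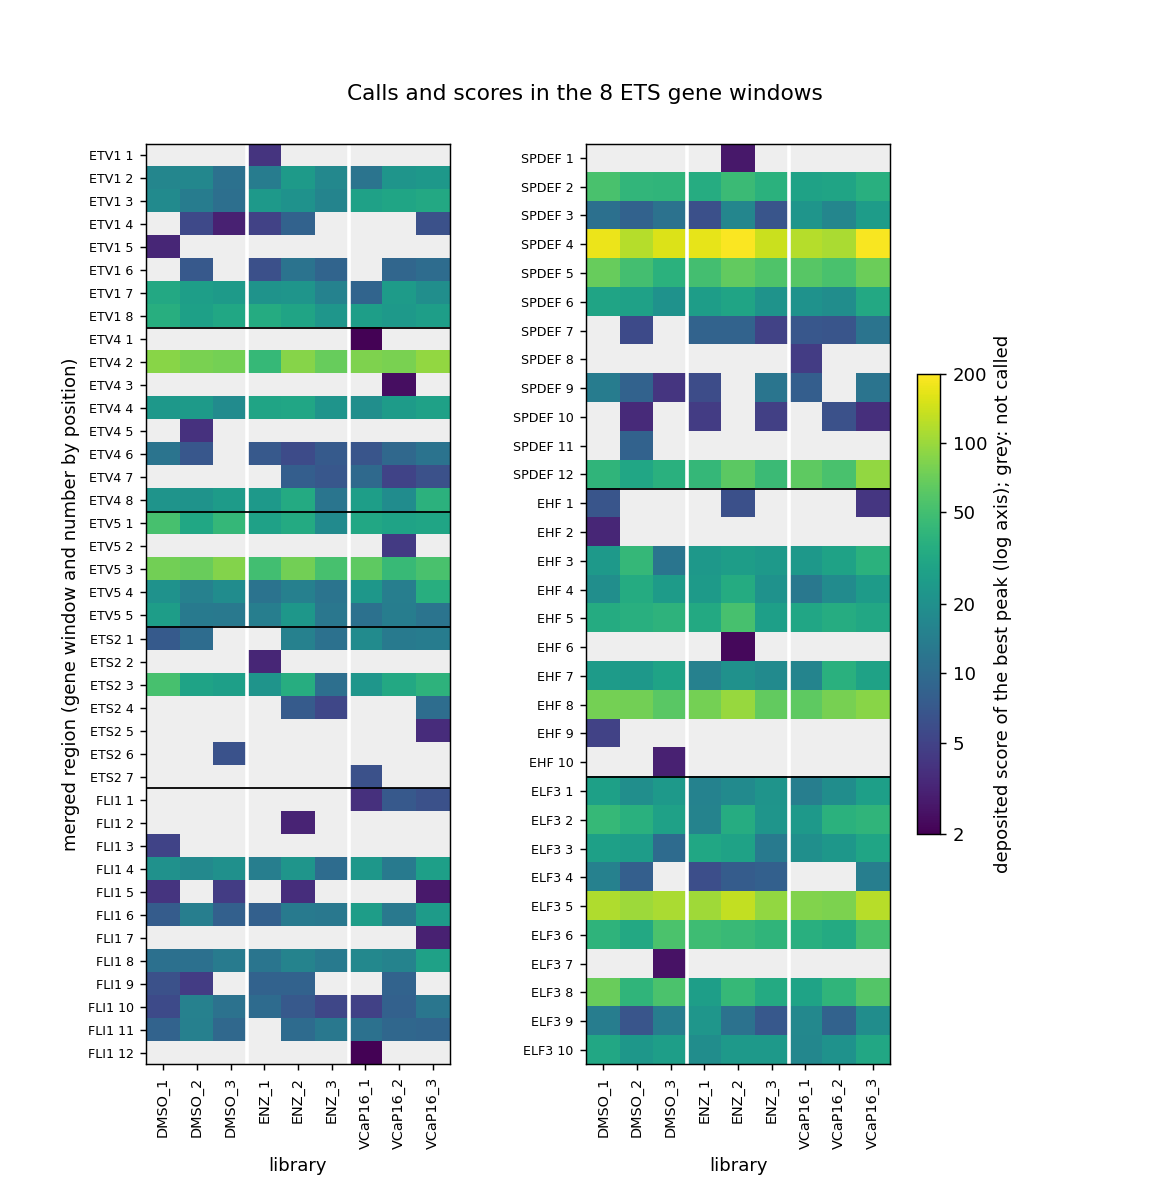
Deposited peak score (colour, log axis, no unit) of each merged region (rows, numbered along the chromosome within each gene window) in each of the 9 libraries (columns), with grey where no peak was called. Of the 72 rows, 35 are coloured in all 9 libraries, and region 4 of SPDEF and region 5 of ELF3 have the highest scores.

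Few consensus regions in the ETS windows differed completely in calls between groups, as was so over the series. The comparison asked whether short ENZ exposure or the resistant line opened or closed chromatin near these genes. After 96 h of ENZ, 0 of 49 consensus regions were called in all 3 VCaP_ENZ and no VCaP_DMSO library (0.936% over the series), and 0 showed the reverse (0.799%). Against VCaP_DMSO, 2 regions (4.08%) were called in all 3 VCaP16 libraries only, where the series had 2.33%: ETV4 region 7 and FLI1 region 1. None was called in all VCaP_DMSO and no VCaP16 library (0 of 49, against 0.762%). Against VCaP_ENZ, FLI1 region 1 alone (1 of 49, 2.04%) was called in VCaP16 only, with 1.62% over the series, and 0 were called in VCaP_ENZ only (0.588%). The same FLI1 region was the 1 member called in all VCaP16 and none of the 6 VCaP libraries (0.787% over the series), and 0 showed the reverse (0.126%). Counts this small lie near the shares of the whole series, and a missing call at unknown depth need not mean closed chromatin.

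Groups of 3 against 3 libraries cannot give an exact p below 0.1, so calls were tested region by region for the 3 VCaP16 libraries against all 6 of VCaP alone. Two-sided Fisher's exact test with Benjamini-Hochberg adjustment called 0 of 66108 regions (0%), and 2.33% had an unadjusted p below 0.05. Among the members only FLI1 region 1 did, with an unadjusted exact p of 0.0119, the smallest that 3 against 6 can give, and an adjusted p of 1. That smallest p survives adjustment over 66108 regions only if a great many regions reach it. The absence of calls in this test therefore says nothing about the members.

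The strength of the shared regions was compared through the score rank, the percentile of a region's score among the 33033 regions called in all 9 libraries, where 0 is the best and 100 the weakest. The score is the authors' value for each peak, and the sources used here do not say whether it comes from a p-value or a q-value. Of the 35 shared members, 1 differed in VCaP16 against VCaP_DMSO at an adjusted p under 0.05 by limma, SPDEF region 12, where 1.07% of all shared regions did. In VCaP_ENZ against VCaP_DMSO 0 of 35 passed (0.0333% over all shared regions by limma), and in VCaP16 against VCaP_ENZ 0 of 35 (0.0878%). Before adjustment, limma gave p below 0.05 for 6 members in VCaP_ENZ against VCaP_DMSO (11.1% of all shared regions), 9 in VCaP16 against VCaP_DMSO (14.7%) and 6 in VCaP16 against VCaP_ENZ (12.7%). The median difference over the members was -0.37, -0.03 and 0.18 percentile points in that order, beside 0.05, 0.32 and 0.08 over all shared regions. Members split 18 nearer the top to 17 farther in the first 2 comparisons and 17 to 18 in the last.

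Members whose ranks did not overlap between groups were counted as well. VCaP_ENZ ranked nearer the top than VCaP_DMSO in 5 of 35 (14.3%, against 8.27% of all shared regions), namely SPDEF regions 4 and 12, ETV1 region 3, EHF region 8 and ETV4 region 4. VCaP_DMSO ranked nearer than VCaP_ENZ in 5 (14.3%, against 7.52%), namely ELF3 region 8, ETV5 regions 1 and 4, ETV1 region 7 and EHF region 7. VCaP16 ranked nearer than VCaP_DMSO in 4 (11.4%, against 10.1%), and VCaP_DMSO nearer than VCaP16 in 1 (2.86%, against 9.8%). VCaP16 ranked nearer than VCaP_ENZ in 4 (11.4%, against 8.59%), and VCaP_ENZ nearer than VCaP16 in 4 (11.4%, against 8.99%). The comparisons share libraries, so a region with low ranks in VCaP_DMSO can appear in more than 1 of them.

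**Figure D2:**
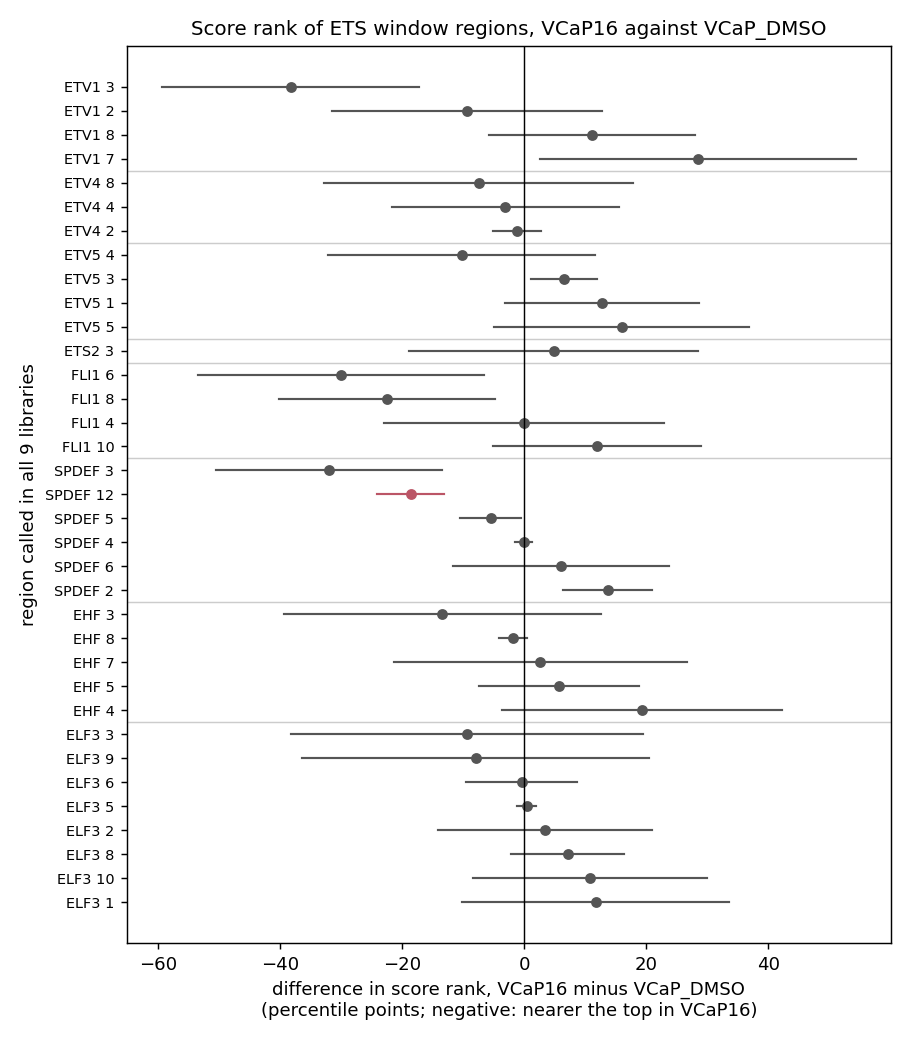
Difference in mean score rank between VCaP16 and VCaP_DMSO (percentile points, negative where the region ranked nearer the top in VCaP16) for the 35 regions called in all 9 libraries, by gene window; points are limma estimates and lines 95% intervals. SPDEF region 12, in red at -18.6, is the 1 region with an adjusted p below 0.05.

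The SPDEF window held the 1 of 35 shared members past the threshold in VCaP16 against VCaP_DMSO, where 1.07% of all shared regions passed. SPDEF promotes luminal epithelial differentiation, but the region is not assigned to SPDEF or to any other gene. Region 12 lies at chr6:34566321-34566898 (hg19), 3102 bp inside the end of the window, the side on which ILRUN is the next gene in RefSeq order. Its scores were 40.8, 30.3 and 37.3 in VCaP_DMSO, 42.7, 63.1 and 46.6 in VCaP_ENZ, and 64.1, 53.8 and 95.0 in VCaP16 replicates 1 to 3. Its ranks were 24.1, 29.5 and 19.8 in VCaP_DMSO, 13.4, 10.1 and 10.3 in VCaP_ENZ, and 4.8, 8.52 and 4.22 in VCaP16. The 3 groups do not overlap in rank: VCaP_DMSO is farthest from the top, VCaP_ENZ between, and VCaP16 nearest. VCaP_DMSO had a mean rank of 24.5 ± 4.84, VCaP_ENZ of 11.3 ± 1.84 and VCaP16 of 5.85 ± 2.34 (SD, n = 3 each). VCaP16 lay 18.6 points nearer the top than VCaP_DMSO (difference -18.6, SE 2.57, 95% interval -24.1 to -13.1, limma adjusted p = 0.00644), and the adjusted p was 0.000278 to 0.0403 over 13 alternatives, the highest without VCaP16 replicate 3, the longest list. The difference of VCaP_ENZ from VCaP_DMSO was -13.2 (SE 2.57, interval -18.7 to -7.64), with a limma adjusted p of 0.109. That of VCaP16 from VCaP_ENZ was -5.44 (interval -10.97 to 0.09), with a limma adjusted p of 0.402, so these 2 groups were not separated by the test.

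The best-ranked region of any ETS window was SPDEF region 4, chr6:34504038-34505042, with scores of 174, 121 and 156 in VCaP_DMSO, 168, 195 and 139 in VCaP_ENZ, and 120, 112 and 192 in VCaP16. Its ranks lay between 0.28 and 1.15 in all 9 libraries. Although the 3 VCaP_ENZ ranks lay nearer the top than every VCaP_DMSO rank, the difference was -0.37 points (limma adjusted p = 0.884).

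SPDEF regions 2 and 3, close to each other, had differences of opposite sign, neither past the threshold. Their differences from VCaP_DMSO were chosen after the values were seen. Region 3, chr6:34497421-34498043, ranked 86.8, 88.1 and 77.1 in VCaP_DMSO, 95.1, 70.8 and 92.9 in VCaP_ENZ, and 41.1, 60.6 and 54.1 in VCaP16. VCaP16 was nearer the top than all 6 VCaP libraries. The difference was -34.4 from VCaP_ENZ (SE 8.59, limma adjusted p = 0.128) and -32.1 from VCaP_DMSO (limma adjusted p = 0.092). Region 2, chr6:34494995-34495538, ranked 15.3, 17.6 and 17.2 in VCaP_DMSO, 19.97, 18.6 and 15.7 in VCaP_ENZ, and 28.6, 29.1 and 33.3 in VCaP16. Here VCaP16 lay farther from the top than all 6 VCaP libraries, by 12.3 points from VCaP_ENZ (SE 3.40, limma adjusted p = 0.161) and 13.7 from VCaP_DMSO (limma adjusted p = 0.0732). Regions 5 and 6 were called in all 9 libraries, at median ranks of 9.11 and 40.0.

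Of the remaining SPDEF regions, number 7 (chr6:34535180-34535590), chosen after its values were seen, was called in 1 of 3 VCaP_DMSO libraries with a score of 5.61. It was called in all 3 VCaP_ENZ libraries at 8.66, 8.69 and 4.94, and in all 3 VCaP16 libraries at 6.99, 6.73 and 11.7. Scores this low sit in the weaker part of each list, between 56.0% and 86.3% from its top. Peaks per library in the window numbered 8.33 ± 1.53 in VCaP_DMSO, 9 ± 1 after ENZ and 9.33 ± 0.58 in the resistant line (SD, n = 3 each), with overlapping ranges. A region can hold more than 1 peak of a library, so these are not counts of regions. Region 6 did so in VCaP_DMSO replicate 3, VCaP_ENZ replicate 1 and VCaP16 replicates 1 and 2.

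In the windows of the PEA3 subfamily genes, 4 of 4 consensus regions of ETV5, 4 of 6 of ETV1 and 3 of 5 of ETV4 were called in all 9 libraries. These counts are small, the series stands at 50.0%, and differences between windows were not tested. The ETV1 window held 6 ± 0, 6 ± 1 and 5 ± 1 peaks per library in VCaP_DMSO, VCaP_ENZ and VCaP16, the ETV4 window 4 ± 1, 4.67 ± 0.58 and 5.67 ± 0.58, and the ETV5 window 4 ± 0, 4 ± 0 and 4.33 ± 0.58 (SD, n = 3 each). ETV1 region 8 counted as more than 1 peak in VCaP_DMSO replicates 1 and 3. The ranges for ETV4 were 3 to 5, 4 to 5 and 5 to 6 peaks, so its groups touch or overlap. The ETV4 counts include weak peaks from 1 library only. These were region 1 at 2.06 in VCaP16 replicate 1, region 3 at 2.36 in VCaP16 replicate 2, and region 5 at 3.87 in VCaP_DMSO replicate 2.

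ETV4 region 7, chr17:41640047-41641017, on the side of the neighbouring MEOX1, was called in 0 of 3 VCaP_DMSO libraries. It had scores of 7.94 and 7.02 in VCaP_ENZ replicates 2 and 3, no call in replicate 1, and 9.73, 5.07 and 6.30 in VCaP16. The calls were thus present in both drug groups and weak. With lists cut to equal length it was called in 2 of 3 VCaP16 libraries, and with at least 50% of the region covered in 1 of 3. The leading ETV4 region, number 2 (chr17:41594350-41595160), ranked 2.18 to 12.8 over the libraries, with VCaP_ENZ replicate 1 at 12.8 and the other 8 libraries at 4.72 or nearer the top.

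ETV5 was led by region 3, chr3:185826745-185827367, with ranks of 7.18, 5.76 and 3.14 in VCaP_DMSO, 9.63, 6.70 and 8.07 in VCaP_ENZ, and 4.89, 12.9 and 17.7 in VCaP16. The VCaP16 libraries spread across both VCaP groups. The difference from VCaP_DMSO, chosen after its values were seen, was 6.47 points (limma adjusted p = 0.247). It depended on single VCaP16 libraries, at 9.72 points without replicate 1 (limma adjusted p = 0.0478) and 3.54 without replicate 3 (limma adjusted p = 0.525). ETV5 region 4, chr3:185835448-185835846, ranked 57.7, 64.4 and 51.4 in VCaP_DMSO, 75.0, 75.6 and 73.5 in VCaP_ENZ, and 39.7, 68.6 and 34.4 in VCaP16. VCaP_ENZ was farthest from the top with no overlap with either group, while VCaP16 was scattered. VCaP16 differed from VCaP_ENZ by -27.1 (SE 10.2, limma adjusted p = 0.29).

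The leading ETV1 region, number 8 (chr7:14029097-14031322), was wide at 2226 bp but of middling rank, 20.9 to 52.2. ETV1 region 3 (chr7:13959584-13960249), chosen after its values were seen, ranked 65.0, 69.1 and 79.0 in VCaP_DMSO, 35.7, 57.2 and 55.5 in VCaP_ENZ, and 29.6, 28.0 and 40.7 in VCaP16. Every library in a drug group ranked it nearer the top than every VCaP_DMSO library, and VCaP_ENZ and VCaP16 overlapped. The difference of VCaP16 from VCaP_DMSO was -38.3 points (SE 9.80, interval -59.4 to -17.2, limma adjusted p = 0.080), and over 13 alternatives the limma adjusted p was 0.0219 to 0.213, below 0.05 in 1 of them, the normal scores of the ranks. Region 7 of the window, also chosen after its values were seen, had the opposite order of means, with VCaP_DMSO at 35.9 ± 1.60, VCaP_ENZ at 51.4 ± 8.70 and VCaP16 at 64.4 ± 25.4 (SD, n = 3 each; limma adjusted p = 0.289 for VCaP16 against VCaP_DMSO). That difference was 28.5 points, and 16.8 without VCaP16 replicate 1.

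**Figure D3:**
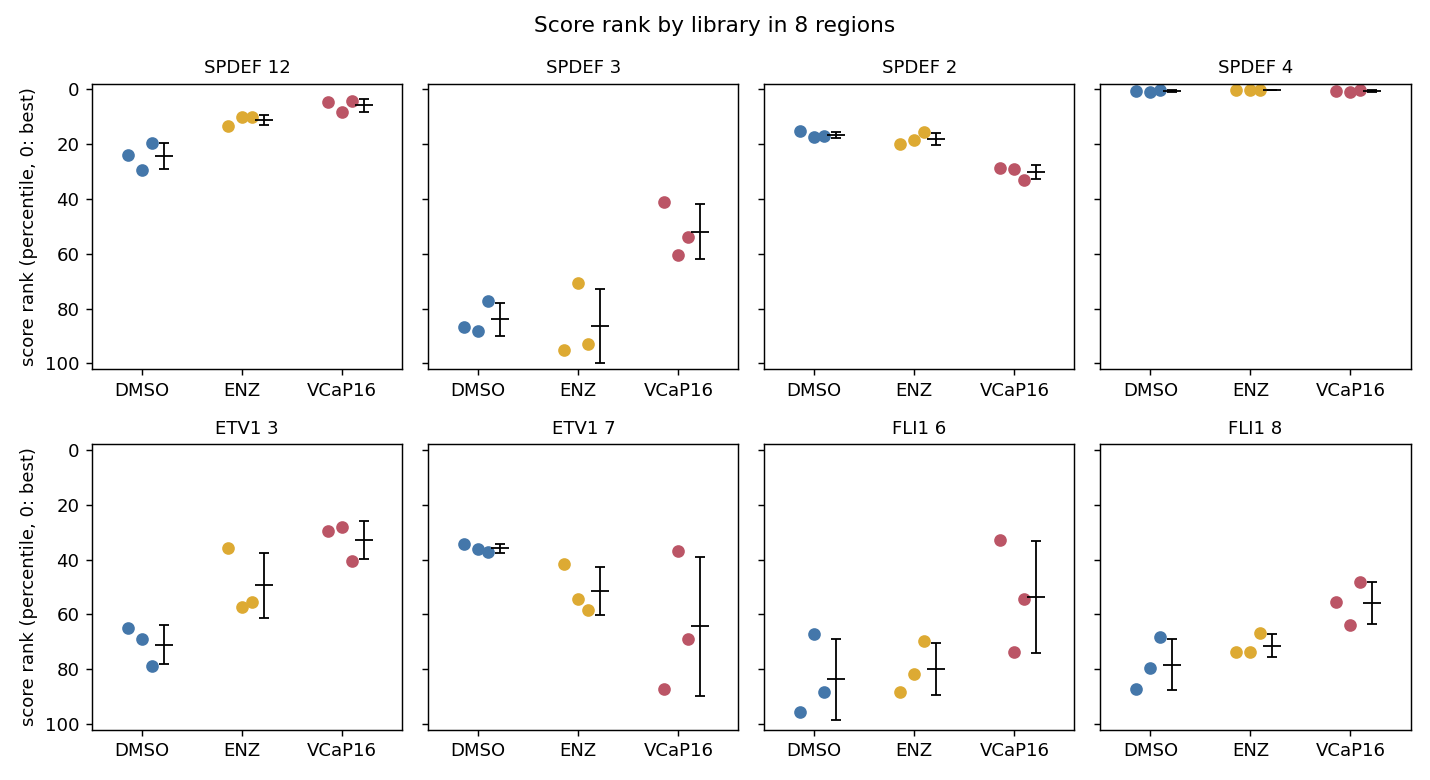
Score rank (percentile, reversed axis, 0 best) of 8 regions in each library, with the mean and SD of each group of 3 beside the points. SPDEF region 12 has means of 24.5 in VCaP_DMSO, 11.3 in VCaP_ENZ and 5.85 in VCaP16 without overlap, SPDEF region 4 lies between 0.28 and 1.15, and ETV1 region 7 and FLI1 region 6 spread most within VCaP16.

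ETS2 and FLI1 sit next to other ETS genes, ETS2 beside ERG on chromosome 21 and FLI1, the closest relative of ERG and the fusion partner of EWSR1 in Ewing sarcoma, beside ETS1 on chromosome 11. EHF, described below, also has an ETS gene, ELF5, as a neighbour in RefSeq order. In the ETS2 window 1 of 3 consensus regions was called in all 9 libraries. That region, number 3 (chr21:40176875-40178541), ranked 15.8, 32.1 and 32.8 in VCaP_DMSO, 40.5, 29.5 and 76.9 in VCaP_ENZ, and 40.7, 24.8 and 29.6 in VCaP16. The groups overlap, and VCaP_ENZ replicate 3 stands farthest from the top. ETS2 region 1 was called in 2, 2 and 3 libraries of VCaP_DMSO, VCaP_ENZ and VCaP16, and region 4 in 0, 2 and 1; both are the remaining consensus regions of the window.

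The FLI1 window had the most merged regions together with SPDEF, 12, of which 8 were consensus and 4 were called in all 9 libraries. FLI1 region 1, chr11:128523772-128524201, on the ETS1 side, had scores of 3.78, 7.18 and 6.27 in VCaP16 and no call in the other 6 libraries. These peaks stood 92.0%, 73.3% and 79.2% from the top of their lists. The region was called in 2 of 3 VCaP16 libraries when a score of at least 5, lists of equal length or a 50% cover was required, and in 0 of the 6 VCaP libraries each time. The leading FLI1 region, number 4 (chr11:128556472-128557521), had mean ranks of 54.0 ± 5.93 (VCaP_DMSO), 66.3 ± 12.4 (VCaP_ENZ) and 54.0 ± 16.4 (VCaP16; SD, n = 3 each), the farthest from the top of the 8 leading regions by median rank (56.8). Regions 6 and 8, chosen after their values were seen, ranked nearer the top in VCaP16 than in VCaP_DMSO by 30.0 and 22.5 points in the mean (differences -30.0 and -22.5), with limma adjusted p values of 0.2151 and 0.2204. FLI1 region 6 ranked 95.4, 67.2 and 88.4 in VCaP_DMSO, 88.3, 81.8 and 69.5 in VCaP_ENZ, and 32.7, 73.8 and 54.4 in VCaP16, so its groups overlap, and its difference from VCaP_DMSO was -19.96 without VCaP16 replicate 1. FLI1 region 8 ranked 87.0, 79.5 and 68.4 in VCaP_DMSO, 73.8, 73.6 and 66.6 in VCaP_ENZ, and 55.3, 63.7 and 48.3 in VCaP16, where VCaP16 did not overlap either group.

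**Figure D4:**
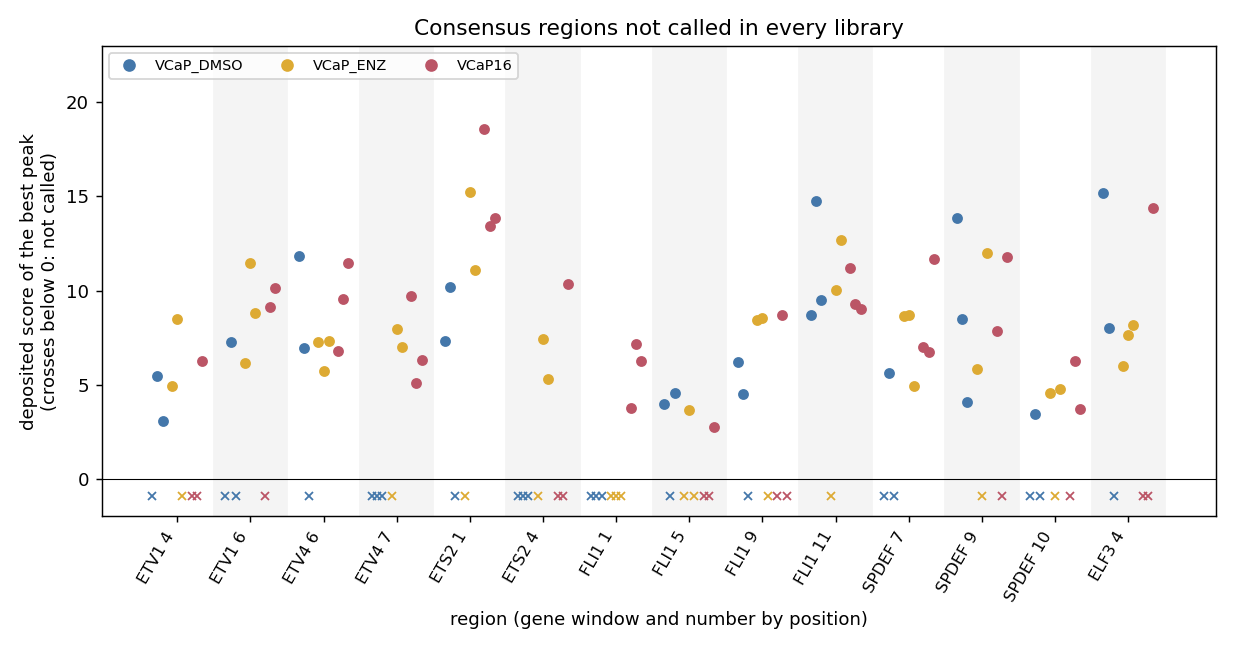
Deposited score (no unit) of the 14 consensus regions of the ETS windows that were not called in every library, 1 point per library coloured by group, with crosses below 0 for libraries without a call. All points lie below 20, and FLI1 region 1 has points from VCaP16 only.

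The other variable consensus regions, given for all members whatever their pattern, were called in mixed sets of libraries. In the order VCaP_DMSO, VCaP_ENZ and VCaP16, the calling libraries numbered 2, 2 and 1 for ETV1 region 4, 1, 3 and 2 for ETV1 region 6, and 2, 3 and 3 for ETV4 region 6. They numbered 2, 1 and 1 for FLI1 region 5, 2, 2 and 1 for FLI1 region 9, and 3, 2 and 3 for FLI1 region 11. SPDEF region 9 had 3, 2 and 2, SPDEF region 10 had 1, 2 and 2, and ELF3 region 4 had 2, 3 and 1. None of these 9 regions separated any 2 groups completely.

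EHF and ELF3 are ETS factors of epithelial cells, and ELF3 has been studied as a repressor of androgen receptor activity. In their windows 5 of 5 EHF and 8 of 9 ELF3 consensus regions were called in all 9 libraries. EHF was led by region 8 (chr11:34689310-34690250), with ranks of 6.85, 4.70 and 7.09 in VCaP_DMSO, 3.30, 3.35 and 4.41 in VCaP_ENZ, and 4.75, 3.123 and 5.19 in VCaP16. VCaP_ENZ lay nearer the top than every VCaP_DMSO library by a small distance, -2.53 points in the mean (SE 1.06, limma adjusted p = 0.406), and VCaP16 overlapped both. ELF3 was led by region 5 (chr1:201978775-201980131), with scores of 80.3 to 132 and ranks of 1.31 to 2.76.

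ELF3 region 8 (chr1:202003683-202004558) ranked 8.61, 18.2 and 9.63 in VCaP_DMSO, 31.2, 20.9 and 19.8 in VCaP_ENZ, and 27.5, 15.9 and 14.5 in VCaP16. VCaP_ENZ lay farther from the top than VCaP_DMSO without overlap, by 11.8 points (SE 4.29, limma adjusted p = 0.34), and VCaP16 overlapped both groups. The ELF3 window held 9 ± 0 peaks in VCaP_DMSO and VCaP_ENZ and 8.67 ± 0.58 in VCaP16, and the EHF window 6.33 ± 1.53, 6 ± 1.73 and 5.33 ± 0.58 (SD, n = 3 each), with overlapping ranges in both windows.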

How the data were processed

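ATAC-seq peak lists of 9 libraries were used. The authors deposited 1 list per library with a score for each peak, and scores were only ranked or described. Per the submitters' processing notes the build was hg19, and the tools were MACS2 2.2.7.1, HOMER 3.12 and BWA 0.7.15-r1140; the tools' roles and the score's definition are not given in the sources used here. Peaks on chromosomes 1 to 22 and X were merged at an overlap of 1 bp or more. Ranks were compared with limma 3.58.1 (R 4.3.3; trended empirical Bayes, all 9 libraries in 1 fit) over the regions called in all 9 libraries, and calls with Fisher's exact test (scipy 1.17.1), both with Benjamini-Hochberg adjustment at 0.05; the steps were tested on simulated data. Depth per library is unknown, so no interval for counting error could be given.

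Regions were named by rule: the best median rank per window, every region called in all of a group and none of another, and, for each pair of groups, those passing limma or else the 3 with the smallest p. The members and lists were chosen with earlier results of these data known. Other ETS genes were not counted, since no hg19 annotation was used here. Alternatives were a minimum score of 5, equal list lengths, a 50% overlap, a looser call rule, all merged regions, normal scores of the ranks, ranks over the regions of each pair of groups, the replicate number as a block, and leaving out each library.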

Additional observations from a re-analysis of the deposited data

How the results depend on the processing

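Of 433 recomputed values, 413 kept their side of the threshold or stayed close, 18 moved, 2 became stronger and 0 reversed. The 413 include values that could hardly change, such as the adjusted counts of Fisher's exact test and the counts over all merged regions. Their number is therefore no measure of robustness. Counts of member regions called in VCaP16 only fell. Against VCaP_DMSO, 2 (1543 over the series) became 1 (1428) with a minimum score of 5. It became 0 with equal list lengths (53646 peaks, series 1087) or a 50% overlap (series 1758). Against VCaP_ENZ and against all VCaP libraries 1 became 0 under each of these 3. There too the series fell in the first 2 settings and rose in the third. Regions called in VCaP_ENZ and not VCaP_DMSO went from 0 to 2 with at least 2 of 3 calls, while the series went from 619 to 2746. When 1 library was left out they ranged from 0 to 2, with 2 without VCaP_DMSO replicate 2 (series 1067) or VCaP_ENZ replicate 1 (series 1451). Those called in VCaP_ENZ and not VCaP16 ranged from 0 to 1. The count was 1 without VCaP16 replicate 3, where the series went from 389 to 1122. Members whose rank differed in VCaP16 against VCaP_DMSO went from 1 to 2 with normal scores and ranged from 1 to 2 when 1 library was left out (2 without VCaP16 replicate 1). All merged regions in place of the consensus left the counts as they were by construction. Deviations of same-numbered libraries correlated weakly, at -0.00901 to 0.0488. Between VCaP_DMSO and VCaP_ENZ the same-numbered values were 0.0202, 0.0488 and 0.0323, and the differently numbered ones -0.0382 to 0.00462. With the replicate block, limma called 0, 1 and 0 members as without it (VCaP_ENZ against VCaP_DMSO, VCaP16 against VCaP_DMSO, VCaP16 against VCaP_ENZ), with an adjusted p of 0.0142 for SPDEF region 12. Over the series limma called 11, 352 and 29 regions; it called 1, 240 and 1 with the block, 174, 939 and 395 with normal scores, 19, 158 and 7 of 17712 with a 50% overlap, and 0, 203 and 0 with ranks over each pair of groups, where unadjusted p was below 0.05 for 3751 and 4421 in the comparisons at 0. Leaving out 1 library gave 0 to 6, 92 to 313 and 0 to 23, with 92 without VCaP16 replicate 3. With equal list lengths, 883, 659 and 190 consensus regions of the series were lost in VCaP16 against VCaP_DMSO, VCaP_ENZ and both, in place of 504, 389 and 83. Those called in VCaP16 only fell, as given above. With a 50% overlap, differences from VCaP_DMSO were larger for SPDEF region 12 (-29.1 in VCaP16, -19.9 in VCaP_ENZ), ETV5 region 3 (10.5 in VCaP16), and ELF3 region 8 (17.97) and EHF region 8 (-4.39) in VCaP_ENZ. For ETV1 region 3 in VCaP16 the difference was slightly smaller (-37.3, from -38.3). Ranks in this setting ran over 17712 regions in place of 33033, so sizes in percentile points are not directly comparable. The causes were not tested. Peak lists without read counts do not show how far depth limits a missing call.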
